A study of Homo sapiens with 4 samples.

Results

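The regions examined were the 3′ ends of protein-coding transcripts, the last annotated base of each canonical transcript. An end was taken when the gene was autosomal and when no other gene, of any type, had its transcription start site (TSS) or end within 2 kb. Of 19540 canonical protein-coding ends in the GENCODE annotation lifted to GRCh37 (hg19), 18643 were autosomal and 12505 met this rule. The 12505 genes lay on the plus strand in 6298 cases and on the minus strand in 6207. Their median span was 27551 bp and the median length of the last exon was 1620 bp. No measured value entered the choice. Upstream here means towards the body of the gene, and downstream means beyond the end of the transcript.

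Nucleosome maps came from BE(2)C, an established human neuroblastoma line in which the MYCN gene is amplified. The study asked how loss of MYCN changes the chromatin of these cells. Cells were transfected once with a non-targeting control siRNA (control, 2 libraries) or with an siRNA against MYCN (MYCN knockdown, 2 libraries). The labels give 80 nM siRNA in every dish and a collection on the following day, and the study's methods give a lower final concentration. The genotype is labelled wild type in both groups, the knockdown was transient, and 1 line stood for each group. Chromatin was fixed with formaldehyde and treated with micrococcal nuclease (MNase), an enzyme that degrades linker DNA, and the fragments that a nucleosome had protected were sequenced from both sides. Nucleosome positions do not measure MYCN mRNA or protein, so the knockdown itself was not checked here.

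A called nucleosome has a dyad, the centre of its DNA, a read count (the fragments whose midpoints were assigned to it) and a fuzziness, the standard deviation in bp of those midpoints around the dyad. Low fuzziness means that the nucleosome sat at nearly the same bases in most cells. Values of the 4 libraries are given in the order control replicate 1, control replicate 2, MYCN knockdown replicate 1, MYCN knockdown replicate 2. The total reads in called nucleosomes were 147726171, 242544884, 147370973 and 239257113. Both replicates numbered 2 were thus deeper than both replicates numbered 1. The minimum of 6 reads for a call was passed more often in them, and most values below differed more between the replicates of a group than between the groups. Nothing in the labels says whether the replicates were separate cultures, so the p-values measure only the spread between these libraries.

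At the end of a protein-coding gene the nascent RNA is cut and a poly(A) tail is added. The cleavage machinery recognises a signal in the RNA, in most genes the hexamer AATAAA or its variant ATTAAA a short way before the cut, followed by a U-rich or GU-rich stretch. The DNA of such ends is therefore rich in A and T, and long runs of A and T bend poorly around the histone core, so that transcript ends are known as places of low nucleosome occupancy in many organisms.

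The hexamer AATAAA was found on the strand of the gene within the last 40 bases of 7894 of the 12505 ends (63.1%). Another 1819 ends (14.5%) had ATTAAA and no AATAAA, and 2792 ends (22.3%) had neither. Over all 19540 ends the share with AATAAA was 62.8%, and windows of the same 40-base length placed 1 kb upstream and 1 kb downstream of the examined ends held it in 2.30% and 2.42% of cases. Where it was present, AATAAA began at a median of 23 bases before the end. The last 30 bases of 9 ends are shown, because they hold the extremes among the ends described here: 3 genes named by the study, 3 ends in the widest gaps and 3 ends lying under a nucleosome at nearly the same place in every library. Capitals mark the last AATAAA or, in an end without one, the last ATTAAA, and an end without capitals had neither in its last 40 bases. All are the closing bases of the last exon, read 5′ to 3′ on the strand of the gene from the GRCh37 reference genome.
MYCN (chr2:16087097-16087126, plus strand): gtttatgaaAATAAAtagcttaaaattaaa
SMC6 (chr2:17845079-17845108, minus strand): tctaaaAATAAAacttaaaatttatatgta
GPRIN2 (chr10:47007852-47007881, plus strand): ATTAAAatatgatttatcttggttaccgaa
RTP5 (chr2:242815946-242815975, plus strand): gtgtaacttcAATAAAaccaagcaaagcca
C19orf67 (chr19:14192436-14192465, minus strand): ttttgtgttaAATAAAagaaagaaagaggt
PLXNB2 (chr22:50713408-50713437, minus strand): taaatcaaatacagcgtctttttcactctg
PDE1B (chr12:54972994-54973023, plus strand): gccagagaacAATAAAgaagggagaccagg
KIF3C (chr2:26149467-26149496, minus strand): tgacAATAAAggaatgagtatcgtcacgga
OAF (chr11:120101014-120101043, plus strand): cccttagctataaaatgagcttacttaaga

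The sequence around the ends was A/T-rich over a short stretch. From 30 to 10 bases before the end, 42.4% of bases were A and 31.3% were T, leaving a GC content of 26.3%. In the 10 bases after the end T was the commonest base (39.7%), and T stayed at 37.8% from 10 to 40 bases after it. GC content was back at 44.7% from 500 to 1000 bp upstream and at 44.8% over the same distance downstream. The TSSs of the same genes differed in this respect, with a mean GC content of 64.6% within 70 bp against 36.9% at the ends.

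Nucleosomes were depleted over the transcript end and were placed on both of its sides. Read density per bp, divided by the density 1 to 2 kb away, had a lowest value of 0.453, 0.491, 0.443 and 0.519 in the 4 libraries. This lowest point lay 15 to 45 bp upstream of the end, the stretch in which the poly(A) signal begins. The density was below 0.8 of the flanks over 140 bp in each of the 4 libraries, a stretch about as long as the DNA of 1 nucleosome. Read counts were capped here at the 99th percentile of each library, so that a few strong nucleosomes could not set the curve.

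The first maximum downstream of the end was the higher one. It reached 1.41, 1.33, 1.38 and 1.32 of the flanks, at 95 to 105 bp. The first maximum upstream reached 1.16, 1.14, 1.19 and 1.17 at 125 to 135 bp. In each of the 4 libraries the downstream maximum was thus higher and nearer to the end. A second downstream maximum of 1.09, 1.08, 1.08 and 1.097 followed at 305 to 335 bp, whereas the second upstream maximum was 0.978 to 1.02, the level of the flanks. The regular array of nucleosomes thus reached further on the downstream side.

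**Figure D1:**
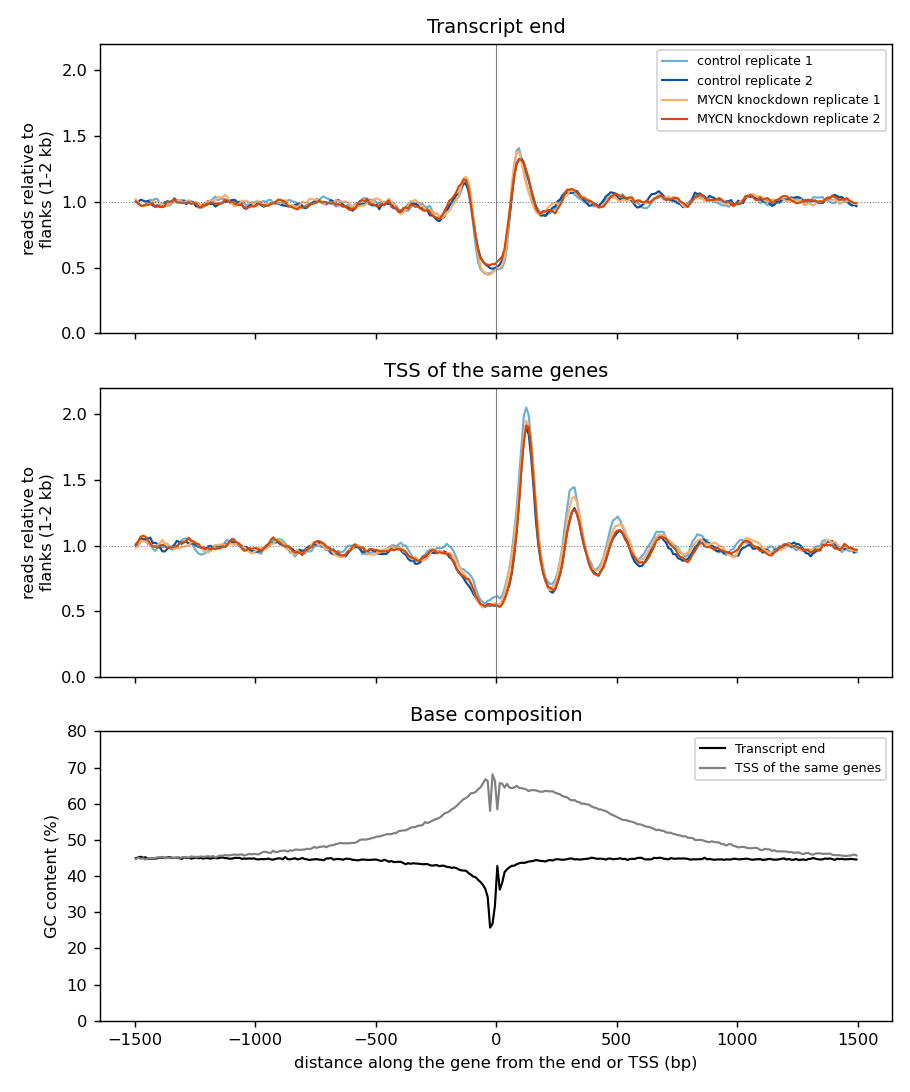
Read density of called nucleosomes (dyad position, capped read counts, relative to the density 1 to 2 kb away) around the 12505 transcript ends and around the TSSs of the same genes, 1 line per library, with GC content in the lowest panel. The end shows a trough of 0.443 to 0.519 between maxima of 1.14 to 1.19 upstream and 1.32 to 1.41 downstream, and the TSS shows 1 tall downstream maximum of 1.90 to 2.05 over GC-rich sequence.

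The start of the same genes had another shape. Downstream of the TSS the +1 nucleosome, the first one in the gene, reached 2.05, 1.90, 1.95 and 1.91, followed by a second maximum of 1.27 to 1.44. The first upstream maximum at the TSS was only 0.950 to 1.01, at 205 to 255 bp. The first maxima on both sides lay 330 to 380 bp apart at the TSS and 220 to 240 bp apart at the end. The trough below 0.8 was 170 to 220 bp wide at the TSS against 140 bp at the end. The end was therefore a narrower gap, with a weaker downstream border and a stronger upstream border than the TSS in each of the 4 libraries. The TSSs were not chosen for isolation, and 7787 of the 12505 had no other gene boundary within 2 kb. The shapes were not compared for those genes alone.

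Whether the dip was deeper at ends or at starts depended on the genes taken and on how nucleosomes were counted. As 1 value per library, the density within 75 bp of the point was divided by that of the flanks. At the ends this dip value was 0.575, 0.619, 0.592 and 0.644, with a mean of 0.607 ± 0.030 (SD, n = 4). At the TSSs it was 0.655, 0.587, 0.620 and 0.590, with a mean of 0.613 ± 0.032 (SD, n = 4). The ends had the lower value in both replicates numbered 1 and the higher value in both numbered 2, and the mean difference was -0.00562 (exact sign-flip permutation test over 4 libraries, two-sided, p = 1, the smallest possible p being 0.13). For genes whose TSS was isolated in the same way as the end, the ends had the deeper dip in 4 of 4 libraries, with values of 0.580, 0.632, 0.593 and 0.656 against 0.760, 0.691, 0.723 and 0.689 at the TSSs (difference -0.101, p = 0.13, the same exact permutation test). With a minimum of 12 reads it was -0.0824 (exact permutation p = 0.375). It was 0.0195 for genes spanning at least 5 kb, and 0.110 when each called nucleosome counted once (higher at the ends in 4 of 4 libraries, exact permutation p = 0.13).

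Nucleosomes were less sharply placed around the ends than around the starts. Within 1 kb of the ends the mean fuzziness was 34.8, 36.3, 34.7 and 36.2 bp, and within 1 kb of the TSSs it was 33.5, 35.3, 33.5 and 35.2 bp. The ends had the higher value by 1.11 ± 0.17 bp (SD, n = 4), in 4 of 4 libraries (exact sign-flip permutation test, two-sided, p = 0.13, the smallest it can give). Over all autosomal nucleosomes the mean fuzziness was 34.6, 36.1, 34.7 and 36.1 bp, close to the values around the ends. At the first downstream maximum of the ends the fuzziness was 33.5 to 35.4 bp, below its value of 34.6 to 36.3 bp in the flanks in every library. The +1 nucleosome of the TSS was sharper, at 30.8 to 32.9 bp. Nucleosomes called at the lowest point of the dip had a mean fuzziness of 35.6 to 36.8 bp, above the flanks in every library.

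**Figure D2:**
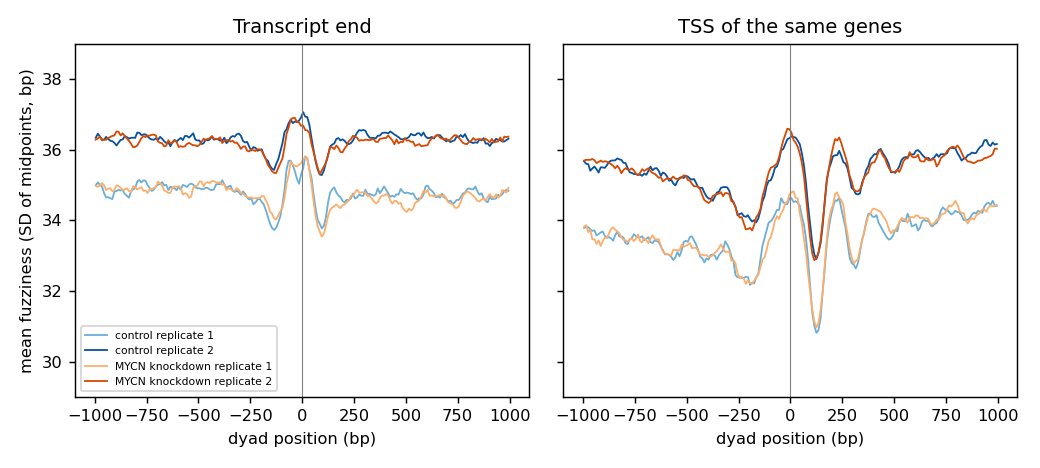
Mean fuzziness (bp) of called nucleosomes by dyad position within 1 kb of the transcript end and of the TSS of the same genes, 1 line per library. Fuzziness was 35.6 to 36.8 bp in the dip at the end and 33.5 to 35.4 bp at the first downstream maximum, and the +1 nucleosome of the TSS lay at 30.8 to 32.9 bp.

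Single ends showed the same depletion as a share of genes. An end was counted as covered when a called dyad lay within 73 bp of it. This held for 4848 ends (38.8%) in control replicate 1, 6233 (49.8%) in control replicate 2, 4982 (39.8%) in MYCN knockdown replicate 1 and 6338 (50.7%) in MYCN knockdown replicate 2. Points 1 kb upstream in the same genes were covered in 57.1%, 63.4%, 58.0% and 62.8% of cases, and points 1 kb downstream in 58.5% to 63.9%. The TSSs were covered in 36.8%, 40.1%, 35.1% and 40.6%. The libraries were also thinned, in 1 random draw of the reads of called nucleosomes, towards the smallest total, that of MYCN knockdown replicate 1. Nucleosomes left with fewer than 6 reads were dropped and positions were not called anew, so the totals were not exactly equal. This setting is called equal depth. In it the ends were covered in 38.6% to 42.3% and the TSSs in 33.7% to 36.8%, and the difference between replicates shrank.

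Across libraries, 2399 ends (19.2%) were free of a nucleosome in all 4 and 1458 (11.7%) were covered in all 4. At the points 1 kb upstream the same counts were 1160 (9.28%) and 3121 (24.96%). Most ends thus changed state between libraries. This was so within a group as much as between groups: the state differed at 39.6% of ends between the 2 controls, at 39.4% between the 2 knockdown libraries, and at 35.4% and 38.9% between the same-numbered control and knockdown libraries. At this depth the state of a single end in a single library was thus poorly determined.

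**Figure D3:**
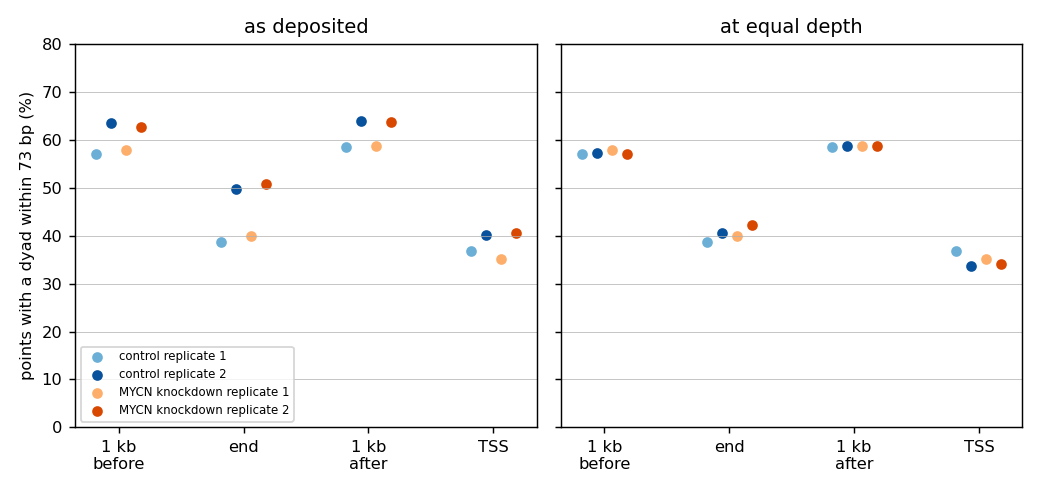
Share of points (%) with a called dyad within 73 bp, for transcript ends, points 1 kb upstream and downstream of them and TSSs of the same genes, 1 point per library, from the nucleosomes as deposited (left) and with the libraries thinned towards the smallest total of reads (right). As deposited, the ends (38.8% to 50.7%) lie below both points 1 kb away (57.1% to 63.9%), and the TSSs lie at 35.1% to 40.6%.

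The first dyads placed the gap slightly upstream of the cut. The median distance from the end to the first dyad upstream was 156, 131, 151 and 132 bp, and to the first dyad downstream 127, 113, 125 and 113 bp. The commonest distance, in steps of 10 bp, was 110 to 130 bp upstream and 70 to 90 bp downstream. The upstream dyad was the nearer one at 40.4% to 43.3% of ends, against 49.1% to 50.5% of the points 1 kb away. The median distance between both first dyads was 290, 243, 285 and 242 bp at the ends and 228 to 253 bp at the points 1 kb away. It was 278 to 317 bp at the TSSs.

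**Figure D4:**
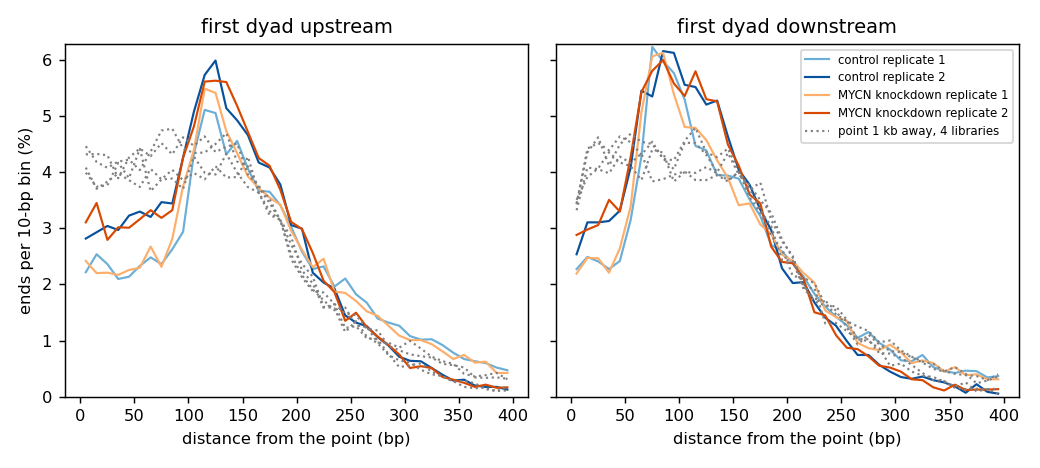
Distance (bp, in bins of 10 bp) from the transcript end to the first called dyad upstream and downstream, as the share of ends per bin in each library, with the points 1 kb away as dotted lines. The lines for the ends rise to 5.10% to 5.98% at 110 to 130 bp upstream and to 5.99% to 6.22% at 70 to 90 bp downstream, and stay below the dotted lines at short distances.

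Differences between control and MYCN knockdown in the nucleosomes at transcript ends were small, and as deposited only the read count separated the groups among the 6 measures compared. The dip value was 0.597 ± 0.031 in control and 0.618 ± 0.037 in knockdown (SD, n = 2 each). The difference of 0.0208 compared with a gap between replicates of 0.0435 in control and 0.0525 in knockdown, and the groups overlapped (exact permutation test, two-sided, p = 0.667). The share of covered ends was 44.3% ± 7.8 in control and 45.3% ± 7.7 in knockdown (exact permutation p = 0.667). The mean fuzziness within 1 kb was 35.5 ± 1.1 bp and 35.4 ± 1.1 bp (exact permutation p = 0.667). The median first dyad lay at 144 ± 18 and 142 ± 13 bp upstream and at 120 ± 10 and 119 ± 8 bp downstream (exact permutation p = 1 for both). At equal depth, which rests on 1 random draw from nucleosomes already called, the groups did not overlap in these distances. The first upstream dyad then lay at 156 and 152 bp in control and at 151 and 150 bp in knockdown, and the first downstream dyad at 127 and 127 against 125 and 124 bp. The differences of -3.5 and -2.5 bp each had an exact permutation p of 0.333. The downstream one was larger than the gap between replicates in both groups, and the upstream one was smaller than that between the controls. With 2 libraries a group, no p below 0.333 could be reached.

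The read count of nucleosomes near the ends also differed. Within 1 kb of the ends the mean read count, divided by the mean over all autosomal nucleosomes of the library, was 1.054 and 1.062 in the controls and 1.037 and 1.048 in the knockdown libraries. Both knockdown libraries lay below both controls. The difference was -0.0156, larger than the gap between replicates of 0.00839 in control and 0.0116 in knockdown (exact permutation test, two-sided, p = 0.333, the smallest possible). With a minimum of 12 reads for a nucleosome the difference was -0.0115 and the groups overlapped (exact permutation p = 0.667).

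The same question was put to each end on its own, with the reads of all nucleosomes whose dyad lay within 1 kb. Of 12505 ends, 12501 passed the minimum of a mean of 10 reads, and 0 of them were called (edgeR quasi-likelihood test, Benjamini-Hochberg adjusted p under 0.05 over the 19480 ends tested, 0% of which were called). At an unadjusted p under 0.05 there were 427 ends (3.42%), 249 higher and 178 lower upon knockdown, against 3.59% of all ends tested. The balance turned to 179 higher and 274 lower without TMM scaling, and to 233 higher and 270 lower without MYCN knockdown replicate 2. DESeq2 called 0 and had 142 ends at an unadjusted p under 0.05. The median size of the log2 change, whatever its sign, was 0.13, and its lower and upper 5% limits over the ends were -0.29 and 0.35.

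MYCN, the gene targeted by the siRNA, encodes the transcription factor that drives this type of tumour. Its end held 13125, 12480, 13282 and 15934 reads within 1 kb in the 4 libraries. The largest read count of any nucleosome was 1764 in each library, although their depths differed. Whether such a ceiling affected the counts and log2 changes at MYCN was not tested. The log2 change at its end was 0.19 ± 0.26 (SE; edgeR adjusted p = 0.9996). This value depended on single libraries, being -0.15 without control replicate 2 and -0.05 without MYCN knockdown replicate 1. The nucleosome over the end alone had 982, 1333, 995 and 1363 reads, against a mean of 14.2, 20.4, 13.98 and 20.01 reads for an autosomal nucleosome. The locus is amplified in this line. Its dyad lay 46, 53, 64 and 55 bp upstream of the end, so that its DNA held the poly(A) signal shown above. It was a fuzzy nucleosome, with 39.8, 39.6, 37.7 and 40.5 bp.

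The next dyad downstream of MYCN lay at 172 and 177 bp in the controls and at 119 and 142 bp in the knockdown libraries, so the groups did not overlap. The distance between these dyads was 218 and 230 bp in control and 183 and 197 bp in knockdown. With a limit of 150 bp on either side of the end this nucleosome fell outside in both controls and inside in both knockdown libraries, and the reads within the limit were 982 and 1333 against 2397 and 3061. The log2 change within this limit was 1.29 (edgeR adjusted p = 0.9996). With the replicate number added as a block it was 1.28 with an edgeR adjusted p of 0.0232, and MYCN was then the 1 end called of 15643 tested (0.00639%). That fit was added after the data were seen, and in the other fits the adjusted p of MYCN was 0.871 to 0.99997. For comparison, the first downstream dyad of an end differed by a median of 45 bp between 2 replicates of a group.

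Of the other genes the study names, SMC6, RAD54B and GPRIN2 had isolated ends, and the ends of SUPT16H, SSRP1 and FEN1 were left out because another gene boundary lay 175, 385 and 186 bp away. SMC6 encodes a subunit of a complex related to cohesin that acts in DNA repair. It had 105 and 191 reads within 1 kb in control and 133 and 195 in knockdown (log2 change 0.21 ± 0.18 SE, edgeR adjusted p = 0.9996). Its end was free of a nucleosome in all 4 libraries, and the first dyad upstream lay at 156 and 157 bp in control and at 229 and 217 bp in knockdown. The groups did not overlap there, and the first upstream dyad of an end differed by a median of 57 to 58 bp between replicates of a group. RAD54B, a DNA translocase of homologous recombination, had 88 and 120 reads in control and 83 and 128 in knockdown. GPRIN2 had 295, 458, 291 and 519 reads, with no nucleosome over the end in the 4 libraries.

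The ends with the smallest unadjusted p-values did not pass the adjusted threshold, so their values are given as measured. SLC10A2, the bile acid transporter of the ileum, had 46 and 101 reads in control and 89 and 171 in knockdown (log2 change 0.87 ± 0.23 SE, edgeR adjusted p = 0.9996). CCDC196 had 75 and 119 against 109 and 200 reads. KCNA1, a voltage-gated potassium channel, had 116 and 173 against 170 and 240 reads. The deeper control lay above the shallower knockdown library in each of these 3, and the groups separated only after scaling to depth. LRATD2 and ENSG00000285085 were the other two, with log2 changes of 0.71 and 0.58.

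On the lower side, ALDH6A1, a mitochondrial enzyme of valine breakdown, had 135 and 233 reads in control and 76 and 138 in knockdown (log2 change -0.74 ± 0.18 SE, edgeR adjusted p = 0.9996). SMIM5 had 256 and 310 against 135 and 237 reads. C1S, a serine protease of the complement cascade, had 165 and 250 against 118 and 153 reads. The last exon of ALDH6A1 had a nucleosome over the end in both controls, with 11 and 15 reads, and in neither knockdown library. The nearest dyad lay 130 bp upstream in MYCN knockdown replicate 1 and 112 bp downstream in replicate 2. Within 150 bp of this end there were 31 and 15 reads in control and 16 and 15 in knockdown, so both replicates numbered 2 had the same count. ULK4 (-0.74 on the log2 scale) and SLC6A18 (-0.56) completed the list. For ULK4 the value was 0.05 within 150 bp of the end, so its lower count lay outside the end itself.

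No gene list held a called end. Cleavage and polyadenylation factors, which act on the ends of other transcripts, had 13 isolated ends among 23 listed genes. Of these 0 were called, and their median log2 change was 0.10, against 0.01 for all isolated ends. Of the 13 ends, 1 was covered in all 4 libraries, that of the poly(A) polymerase gene PAPOLA, against 11.7% of all isolated ends. Another 2 were free in all 4, against 19.2% of all isolated ends. These were PAPOLG, also a poly(A) polymerase gene, and XRN2, which encodes the exonuclease that follows the cut. Ribosome biogenesis genes (14 of 32 listed) had a median of 0.07 with 0 called. Adrenergic transcription factors and catecholamine enzymes, which mark the identity of such neuroblastoma cells, had 15 isolated ends of 18 listed, a median of 0.08 and 0 called. All 15 carried AATAAA. The list of the MYC network and the FACT histone chaperone (8 of 15) had a median of 0.15 and 0 called. All 8 were MYC network genes, since the ends of the FACT genes SUPT16H and SSRP1 were not isolated.

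Double-strand break repair genes had 27 isolated ends of 41 listed, a median log2 change of -0.00104 and 0 called. In this list 2 genes, RAD54L and RNF8, had an unadjusted p under 0.05 and lower values upon knockdown, where 178 of the 12501 isolated ends tested did. RAD54L had 120 and 148 reads in control and 66 and 114 in knockdown, a log2 change of -0.57. RNF8, a ubiquitin ligase at DNA breaks, had 139 and 282 against 118 and 196 reads, a log2 change of -0.36.

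Replication-dependent histone genes, whose mRNAs end in a stem-loop without a poly(A) tail, had isolated ends at 14 of 70 listed genes, and 2 of the 14 held AATAAA. The dip value over these 14 ends was 1.43 and 1.44 in control and 0.725 and 1.19 in knockdown, compared with 0.575 to 0.644 for all ends. The spread over so few ends was wide, and the group difference was not tested. Their median log2 change in reads was 0.13 with 0 called.

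Ends with the canonical poly(A) signal had a deeper dip than ends without a signal in each of the 4 libraries. With AATAAA the dip value was 0.539 and 0.592 in control and 0.567 and 0.610 in knockdown, and with ATTAAA alone 0.524, 0.584, 0.537 and 0.596. With neither hexamer it was 0.711, 0.716, 0.695 and 0.771. All 4 libraries had the lower value with AATAAA, by 0.146 ± 0.024 in the mean (difference -0.146, SD, n = 4, exact sign-flip permutation test, two-sided, p = 0.13, the smallest it can give). The ends with AATAAA were also richer in A and T, with a median GC content of 34.7% within 75 bp against 38.7% at ends with neither signal. The mean of the differences within the 4 quartile classes of this GC content was -0.0790, again in 4 of 4 libraries.

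The GC content within 75 bp of the end went with a wider range of dip values than the poly(A) signal, the promoter state, the gene span or the last exon. In the class of lowest GC content (3353 ends with at most 30% GC) the dip value was 0.270, 0.421, 0.295 and 0.450. It was 0.546, 0.681 and 0.789 in the mean of the libraries for quartile classes 2, 3 and 4. In the lowest class both deeper libraries lay above both shallower ones, as they did over all ends. At equal depth the values there were 0.268, 0.346, 0.295 and 0.390, so the replicates numbered 2 still lay above those numbered 1. In the highest class the 4 libraries lay between 0.769 and 0.801. The presence of AATAAA went with a small difference in the lowest class (0.362 with it and 0.374 with neither signal) and a larger one in the highest (0.726 and 0.932). MNase cuts A/T-rich DNA more readily, and a digest of naked DNA was not analysed here, so its part in these values was not tested.

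The density at the downstream nucleosome was likewise higher with higher GC content. Its maximum was 1.06 to 1.16 of the flanks in the lowest class, 1.16 to 1.27 in class 2, 1.46 to 1.63 in class 3 and 1.81 to 2.03 in the highest. The first dyad downstream lay at 131 to 173 bp in the lowest class and at 95 to 98 bp in the highest. The lowest point itself was 0.204 to 0.370 in the lowest class, 0.398 to 0.497 in class 2, 0.512 to 0.566 in class 3 and 0.529 to 0.572 in the highest, so it differed little between the upper classes. In the highest class it was 0.435 to 0.471 with AATAAA and 0.674 to 0.7498 with neither signal. Ends with the most G/C-rich DNA within 75 bp thus had a trough between strong nucleosomes close by. Ends with the most A/T-rich DNA within 75 bp had a deeper one with weak borders.

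The structure of the gene went with smaller differences, which are given without a test. Among genes with several exons, the dip value was 0.685 where the last exon was under 500 bp, 0.582 where it was 500 to 2000 bp and 0.570 where it was longer, as means of 4 libraries. The upstream maximum reached 1.33 to 1.52 next to short last exons and 0.995 to 1.07 next to long ones, so with short last exons both sides of the end carried a strong nucleosome. The median GC content within 75 bp of the end also differed, at 40.7% with short last exons and 33.3% with long ones. The exon classes were not compared within classes of GC content. The 723 genes without introns had a dip value of 0.817, and 37.1% of them had AATAAA. Genes spanning less than 10 kb had 0.664, and those of 10 to 50 kb, 50 to 200 kb and over 200 kb had 0.585, 0.584 and 0.611. The 2939 ends lying inside another gene had 0.629 against 0.601 for the rest. The 6138 autosomal ends with a neighbouring gene boundary had 0.618, and the isolated ends differed from them by -0.0108 (lower in 3 of 4 libraries, exact sign-flip permutation test, two-sided, p = 0.25).

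**Figure D5:**
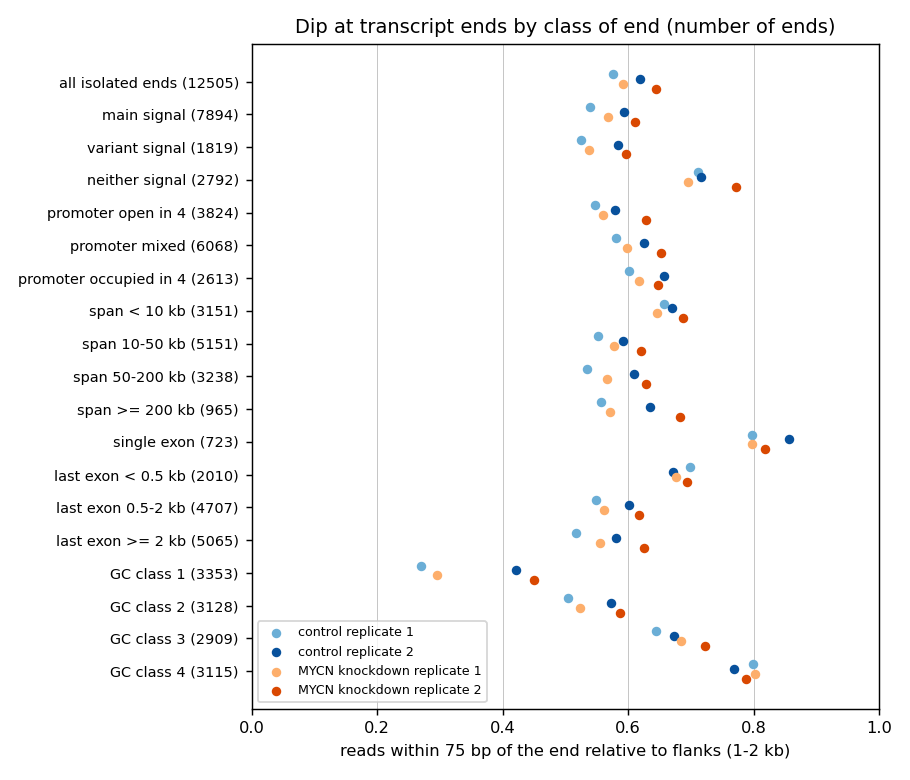
Dip value (reads per bp within 75 bp of the end relative to 1 to 2 kb away) for classes of transcript ends, 1 point per library, with the number of ends in parentheses; GC class 1 is the lowest and the signals are AATAAA (main) and ATTAAA (variant). The classes of GC content span 0.270 to 0.801, ends with the main signal lie at 0.539 to 0.610 and ends with neither signal at 0.695 to 0.771.

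The state of the promoter of the same gene went with a small difference at its end. A promoter was open when no nucleosome had at least 80% of its DNA in a promoter window that began 200 bp before the TSS and closed 50 bp after it. The 3824 genes with an open promoter in all 4 libraries had dip values at their ends of 0.546, 0.579, 0.560 and 0.629. The 2613 genes with an occupied promoter in all 4 had 0.602, 0.657, 0.617 and 0.648. The difference was -0.0525 ± 0.0247 (SD, n = 4), lower with an open promoter in 4 of 4 libraries (exact sign-flip permutation test, two-sided, p = 0.13, the smallest it can give). As a mean within the classes of GC content it was -0.0211 and MYCN knockdown replicate 2 lay above 0 (exact permutation p = 0.25).

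Some ends lay in gaps much wider than usual. The distance between both first dyads was at least 300 bp in all 4 libraries at 873 ends (6.99%) and at least 400 bp at 203 (1.63%). RTP5, of the receptor transporter protein family, had gaps of 660, 589, 637 and 762 bp, with the first dyad 519 to 690 bp away on the gene side and 70 to 105 bp away beyond the end. By the 73 bp rule the RTP5 end was covered in both replicates numbered 2, with dyads 70 and 72 bp beyond it. PLXNB2, a plexin that serves as a semaphorin receptor, had gaps of 688, 726, 636 and 577 bp, and C19orf67 had 544, 536, 552 and 544 bp. In both, the gap lay beyond the end, with the first downstream dyad at 545 to 559 bp and at 452 to 458 bp. Control and knockdown overlapped at C19orf67. At PLXNB2 they did not, since the first dyad upstream lay at 137 and 167 bp in control and at 91 and 29 bp in knockdown. The nucleosome at 29 bp, in MYCN knockdown replicate 2, had 8 reads and covered the end by the 73 bp rule. The first upstream dyad of an end differed by a median of 57 to 58 bp between replicates of a group. The group difference at PLXNB2 was not tested.

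The other wide gaps were at ENSG00000236543 (624 to 799 bp), FOXD4L5 (515 to 853 bp) and FAM90A9 (473 to 561 bp). In MYCN knockdown replicate 2 a nucleosome of 7 reads covered the end of ENSG00000236543. FOXD4L5 and FAM90A9 belong to families with near-identical copies, so their read counts are uncertain. The ends of RTP5 and C19orf67 had AATAAA, and PLXNB2 and ENSG00000236543 had neither hexamer. A gap of this size was therefore seen with and without the signal.

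At other ends a nucleosome stood over the cut in every library. Of the 1458 ends covered in all 4 libraries, 75 had their 4 dyads within 10 bp of each other, and 8 of these had at least 20 reads in each library. PDE1B, a calmodulin-dependent phosphodiesterase, had its dyad 56, 57, 58 and 50 bp upstream of the end, with 23, 38, 21 and 40 reads and a fuzziness of 24.7, 29.6, 31.4 and 25.9 bp. KIF3C, a kinesin motor, had its dyad at 58, 59, 62 and 65 bp upstream, with a fuzziness of 33.8, 27.1, 36.99 and 29.98 bp. Both carried AATAAA within the DNA of that nucleosome, since a nucleosome reaches 73 bp from its dyad.

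OAF had the dyad 48, 54, 57 and 55 bp upstream and had neither hexamer. Its fuzziness was 24.3 to 30.6 bp, and the mean around ends was 34.7 to 36.3 bp. The rule took the 6 ends of lowest fuzziness among these 8, which did not make each of them sharp. OR2A5, an olfactory receptor gene, and USP17L28, a copy of a multicopy deubiquitinase family whose counts are uncertain, were also named by this rule, and USP17L28 had a fuzziness of 38.0, 35.5, 40.3 and 34.5 bp. Positions of these nucleosomes lay within 10 bp of each other over the 4 libraries, as the rule required.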

How the data were processed

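MNase-seq maps of BE(2)C cells were analysed in 2 control and 2 MYCN knockdown libraries, grouped by the sample titles. The authors trimmed reads, aligned them to hg19, kept well-mapped proper pairs, removed duplicates and called nucleosomes with Genetrack in each library. The submitters' processing notes give Trim Galore 0.4.4, Bowtie2 2.2.4 and CASAVA 1.9, and versions of Samtools and Genetrack are not given in the sources used here. Each deposited nucleosome carries the count of fragment midpoints assigned to it, taken here as unscaled, and the authors dropped those with fewer than 6. The largest count was 1764 in all 4 libraries, so the highest counts may have been limited. The deposited fuzziness is the SD of the midpoints in bp. A list's total is therefore not the library's sequencing depth, a place without a call may still hold reads, and the cutting preference of MNase cannot be told apart from occupancy.

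Here, dyads were placed relative to GENCODE v44lift37 ends and starts with Python 3.11.15 and numpy 2.4.6. The dip value is reads per bp within 75 bp over reads per bp 1 to 2 kb away. A library is 1 observation in the exact permutation tests (two-sided). Of these, 6 compared groups, with a Benjamini-Hochberg adjusted p of 1 in each, and 5 compared classes of points within libraries, with adjusted p of 0.208 (fuzziness, poly(A) signal, promoter state), 0.312 (crowded ends) and 1 (dip against TSSs). Summed counts were tested with edgeR 4.0.16 in R 4.3.3 (TMM, group only, mean of at least 10 reads), with DESeq2 1.42.0 as an alternative. The scripts were tested on simulated data. Named genes were those the study names, the 5 ends a direction with the smallest p, the 6 widest gaps (first dyads within 1 kb and at least 100 reads in every library) and the 6 of lowest fuzziness among the 8 ends with a nucleosome over the end at the same place in all libraries, 1 of which is not reported here. The ends and gene lists were chosen with earlier results of these data known.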

Additional observations from a re-analysis of the deposited data

How the results depend on the processing

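Besides the leave-one-out runs, the alternatives were a minimum of 12 reads, equal depth, isolation by 5 kb, a gene span of at least 5 kb, each dyad counted once, uncapped reads, a dip within 150 bp, nearer flanks, isolated TSSs, the mean over GC classes (added after the data were seen), the replicate block, and, for the count test, DESeq2, no TMM, no filter and reads within 150 bp, also with the block. Of 80 such values for the 12 main comparisons, 76 kept their direction or, in the count test, the number of called ends. The exact permutation tests could not fall below the threshold with so few libraries, so only the direction could change there. A change in the exact p alone was not counted. For the measures compared between groups, the replicate block returned the main difference by construction, so those values could not change. The end minus TSS difference in the dip turned from -0.00562 to 0.0195 for genes spanning at least 5 kb and to 0.110 with each dyad counted once. The difference in the first downstream dyad was 0 bp with a minimum of 12 reads, against -1 bp. The count of called ends was 1, MYCN, within 150 bp with the replicate block, against 0. The causes were not tested, except that the 150 bp limit lay between the control and knockdown positions of the downstream nucleosome of MYCN.

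Leaving out 1 library at a time moved the difference between groups from -0.00549 to 0.0470 for the dip value, from -4.58 to 6.49 percentage points for covered ends, from -0.814 to 0.697 bp for fuzziness, from -14.5 to 10.5 bp for the first upstream dyad and from -8 to 6 bp for the first downstream dyad. The sign of each of these depended on the library left out. The relative read count near ends stayed between -0.0214 and -0.00977. The end minus TSS difference ran from -0.0257 to 0.0192 for the dip and from 1.05 to 1.17 bp for fuzziness. It ran from -0.154 to -0.138 for the poly(A) signal, from -0.0637 to -0.0439 for the promoter state and from -0.0148 to -0.00783 for isolated against crowded ends. The number of called ends was 0 in each.

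Among the named ends, the log2 change of MYCN ran from -0.15 (without control replicate 2; -0.05 without MYCN knockdown replicate 1) to 0.64 (without control replicate 1), and was 1.28 within 150 bp with the block. RAD54B ran from -0.090 (without control replicate 2) to 0.17. GPRIN2 was -0.57 within 150 bp and -0.53 there with the block, and ULK4 was 0.052 and 0.056.

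The labels do not say that a shared replicate number marks a shared batch. Over 12501 ends, the departures of 2 libraries with the same number from the mean of their own group correlated at 0.215, and such libraries also had similar depth. With the replicate number as a block, the count test again called 0 ends (671 had an unadjusted p under 0.05). The mean same-numbered difference was 0.0208 ± 0.0064 (SD of 2 pairs) for the dip value. A place under the minimum of 6 reads cannot be told from a free one.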

Other observations

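GC content over the wider region gave a narrower range than that at the end itself. In classes of GC content within 1 kb, from the lowest to the highest, the mean dip value of the 4 libraries was 0.543, 0.605, 0.614 and 0.645. The lowest point of the density was 0.406 to 0.553 of the flanks in the lowest of these classes and 0.422 to 0.446 in the highest. The direction differed between libraries. In both replicates numbered 1 the lowest class had the deeper lowest point (0.408 in control and 0.406 in knockdown, against 0.422 and 0.441 in the highest). In both numbered 2 it had the shallower one (0.505 in control and 0.553 in knockdown, against 0.446 and 0.437). The distance between both first dyads was under 220 bp in all 4 libraries at 499 ends (3.99%). Among the gene lists, 4 of 15 adrenergic genes and 5 of 27 repair genes had ends free of a nucleosome in all 4 libraries, against 19.2% of all isolated ends. The counts were 2 of 13 for cleavage and polyadenylation factors and 2 of 14 for ribosome biogenesis. They were 1 of 8 for the MYC network, with no FACT gene among the 8, and 1 of 14 for histone genes.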
